A study of Mus musculus with 9 samples.

Results

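The proteasome genes of mouse bone marrow mononuclear cells were compared between MLL-AF9 and control cells in the polyA RNA of the series. Members were the rows of the RNA table whose gene symbol begins with Psm, a letter from a to g and a digit, and 48 of 22942 rows met that rule. One of them, Psmc3ip, encodes a meiotic recombination factor and matched by name only, so 47 proteasome genes are described. MLL-AF9 cells had received the retrovirus MSCVneo-MLL-AF9, which carries a leukemia fusion gene joining the histone methyltransferase MLL to AF9, together with MSCVpuro. Control cells had received the empty viruses MSCVneo and MSCVpuro. All cells came from the B6.SJL (CD45.1) strain, and the labels give no age, no number of animals and no word on whether libraries were pooled from several animals. Each group has 3 RNA libraries, but the deposited table holds 1 pooled value per gene and group, in FPKM (fragments mapped, scaled by transcript length and library size). The spread between libraries and the depth behind each value are therefore unknown, and a value stands without an error of its own.

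The proteasome is the protease that degrades ubiquitin-tagged proteins in the cytosol and nucleus. Its barrel-shaped 20S core has outer rings of alpha subunits, which gate the entrance, and inner rings of beta subunits, some of which cut peptide bonds. The 19S cap binds ubiquitin chains, removes them, and unfolds the substrate with a ring of ATPases. In blood cells, and after exposure to interferon gamma, the catalytic beta subunits are partly replaced by immunoproteasome forms, and the PA28 activator binds the core. Both are known for their part in making peptides for MHC class I.

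Of the 47 proteasome genes 0 passed the test in either direction. Of them 45 averaged 1 FPKM or more over both groups, the floor set for counting, and 43 of these lay above 14.5 FPKM, the median level of all rows above that floor, while Psmd9 and Psmf1 lay below it. Among these 45, 0 were higher and 0 were lower by the q-values of the authors' deposited table (threshold 0.05), and 0 had an unadjusted p under 0.05. Over the whole table, of 11538 rows above the same floor 1192 were called (10.3%), 5.13% as higher and 5.2% as lower in MLL-AF9 cells, and 19.8% had an unadjusted p under 0.05 in the authors' deposited table. The smallest q-value of a proteasome gene in the authors' deposited table was 0.446, that of Psmg4. The authors' test is not named in the sources used here.

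The listed values of the 45 genes lay close together in the 2 groups. The ratio of MLL-AF9 over control FPKM lay between 0.928 for Psmb9 and 1.67 for Psmg4, with a median of 1.20. A difference of at least 1.5-fold was listed for Psmd1 and Psmg4, hence for 43 of 45 genes it was smaller, whereas 47.8% of all 11538 rows differed by at least 1.5-fold. No proteasome gene differed by 2-fold, against 24.8% of all rows. On the log2(FPKM + 1) scale, used for every log2 change here, the median change was 0.25 over the 45 genes and 0.29 over all rows, and the standard deviation over genes was 0.19 against 1.05. These comparisons were not matched for level, and 43 of the 45 genes lay above the median level of all rows. Of 6906 rows in the level range of the 45 genes, 4872 likewise differed by no more than 1.67-fold. Above 0 stood 40 genes and below it 5, and 68.7% of all rows were listed higher. After centring on the median of all rows 19 genes stood above and 26 below. Under quantile normalization 36 stood above 0, and 35 when both groups were scaled to their sum without the 100 highest rows. The count thus depended on the scaling, and no direction is given for the family.

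A change of the size seen here was seldom called for any gene. Among 6906 rows with a mean between 9.23 and 236.9 FPKM, the range of the 45 genes, 606 were called (8.77%). Of the 4872 such rows whose groups differed by no more than the 1.67-fold of Psmg4, 9 were called, and 95% of the called rows differed by at least 1.85-fold. A q-value above the threshold therefore does not show that a proteasome gene had the same level in both groups.

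**Figure D1:**
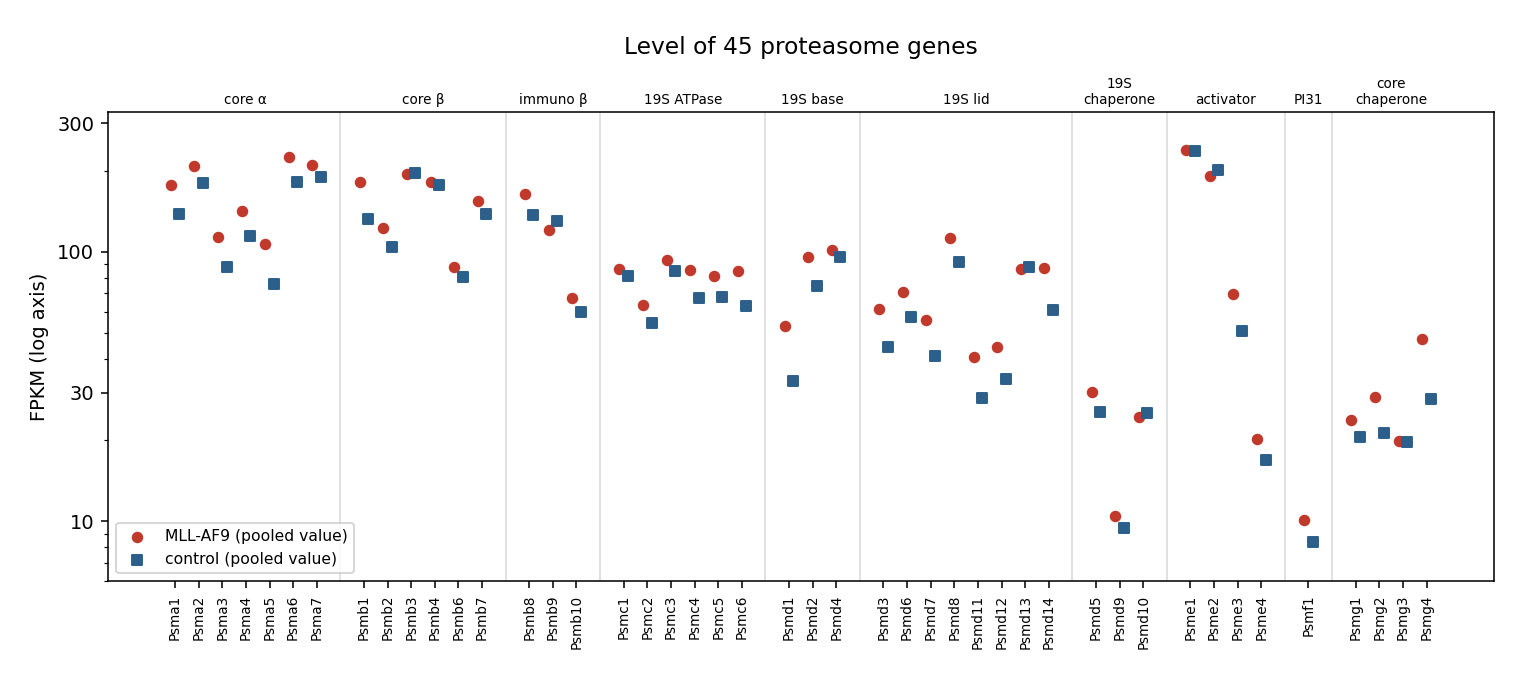
FPKM on a log axis of the 45 proteasome genes above the floor of 1 FPKM, by subgroup, with the pooled MLL-AF9 value (red circle) left of the pooled control value (blue square). Core genes and Psme1 and Psme2 lie highest, Psmf1 and Psmd9 lowest, and the order of the genes is nearly shared by the groups.

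The order of expression levels was nearly shared by both groups. Across the 45 genes, which share the libraries of each group, the FPKM values of MLL-AF9 and control cells had a Spearman correlation of 0.986. Psme1, which encodes the alpha chain of PA28, was first in both groups, at 238 FPKM in MLL-AF9 cells, against 236 FPKM in controls. Psmf1, which encodes the inhibitor PI31, was last in both, at 10.1 FPKM in MLL-AF9 cells, against 8.36 FPKM in controls. Because FPKM is per length, levels of different genes can be set side by side, but the RefSeq table used here names 6 pseudogenes of proteasome genes, and reads shared with such copies may alter single values.

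Core alpha genes, 7 in number, were listed higher in MLL-AF9 cells at each member, without passing. Of all rows 68.7% were listed higher, and 5 of the 7 lay above the median change of all rows and 2 below. Their FPKM ranged from 107 to 225 in MLL-AF9 cells, against 76.1 to 189 in controls. The median log2 change was 0.31, close to the 0.29 of all rows, and 0.017 after centring on that median. Psma5, the alpha5 subunit, had the largest change of the ring, at 107 FPKM in MLL-AF9 cells, against 76.1 FPKM in controls, a ratio of 1.41. Psma7, the alpha4 subunit, had the smallest, at 210.5 FPKM in MLL-AF9 cells, against 189 FPKM in controls. Psma6 was the highest core gene of MLL-AF9 cells at 225 FPKM, against 182 FPKM in control cells. Between these extremes, Psma1, Psma2 and Psma4 had ratios from 1.16 to 1.28, and Psma3 was at 113 FPKM in MLL-AF9 cells, against 87.5 FPKM in controls. Psma8, a testis form of alpha4, was listed at 0 in MLL-AF9 and at 0.240 FPKM in control cells, under the floor, with p = 0.0365 but q = 1 in the authors' deposited table.

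Constitutive core beta genes in the table were 6, and Psmb5, the constitutive beta5 gene, was not analysed here. Their median log2 change was 0.14, or -0.15 after centring on the median of all rows. Psmb1, the non-catalytic beta6 subunit, had the largest change, at 182 FPKM in MLL-AF9 cells, against 133 FPKM in controls. Psmb3 and Psmb4, also without a catalytic site, stood at 195 and 181 FPKM for MLL-AF9, against 195 and 177 FPKM in control cells, hence within 1.02-fold. Psmb2, another structural subunit, was at 123 FPKM in MLL-AF9 cells, against 104 FPKM in controls. Levels over the 13 constitutive core genes varied by a coefficient of variation of 27.3% in MLL-AF9 and 31.4% in control cells, with the highest gene 2.57 times the lowest in each group. Psmb6 was the lowest of the 13 in MLL-AF9 cells and Psma5 the lowest in control cells. Psmb11, which encodes the beta5t subunit of the thymic cortex, was listed at 0.570 FPKM in MLL-AF9 cells, against 0.580 FPKM in controls, below the floor in both.

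Of the 3 immunoproteasome genes 0 passed the test. Psmb8 and Psmb9 lay within the range of the 13 constitutive core genes in both groups, and Psmb10 lay below the lowest of them in both. Psmb8, the beta5i subunit, was at 164 FPKM in MLL-AF9 cells, against 137 FPKM in controls (q = 0.828 in the authors' deposited table). Psmb9, the beta1i subunit, was at 121 FPKM in MLL-AF9 cells, against 130 FPKM in controls (q = 0.937 in the authors' deposited table). Psmb10, the beta2i subunit, was at 67.3 FPKM in MLL-AF9 cells, against 59.6 FPKM in controls (q = 0.892 in the authors' deposited table). Psmb9 had the lowest ratio of the 45 genes, 0.928, and a log2 change of -0.11. Psmb8 equalled 98.0% of the median of the 6 constitutive beta genes in MLL-AF9 and 101% in control cells, and Psmb9 equalled 72.2% of it in MLL-AF9 and 96.3% in control cells. Psmb10 equalled 40.2% of that median in MLL-AF9 and 44.1% in control cells. The median itself was 167 FPKM in MLL-AF9 cells, against 135 FPKM in controls, and rested on different genes. It lay between Psmb7 and Psmb4 in MLL-AF9 cells, and between Psmb1 and Psmb7 in controls. The median log2 change of these 6 genes was only 0.14. The percentages therefore moved with the choice of middle genes too, and are no measure of a loss of Psmb9. The log2 median of the 3 immunoproteasome genes was 0.17, or -0.12 after centring on all rows.

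RNA shares of the immunoproteasome form, taken over the 2 genes of a catalytic site, do not depend on a factor that scales a whole group. At the beta1 site, where Psmb6 encodes the constitutive caspase-like subunit, Psmb9 made up 58.0% of the summed FPKM of Psmb9 and Psmb6 in MLL-AF9 and 61.9% in control cells. Psmb6 itself was at 87.5 FPKM in MLL-AF9 cells, against 80.3 FPKM in controls. At the beta2 site, where Psmb7 encodes the constitutive trypsin-like subunit, Psmb10 made up 30.4% of the sum of Psmb10 and Psmb7 in MLL-AF9 and 30.2% in control cells. Psmb7 stood at 154 FPKM in MLL-AF9 cells, against 138 FPKM in controls. In RNA, the immunoproteasome form was thus the larger part at beta1 and the smaller part at beta2 in both groups. Protein was not measured in these data. The pseudogenes named in the RefSeq table include copies of Psmb6 and Psmb7, but none of Psmb9 or Psmb10. Reads shared with those copies may alter the shares, which was not tested. The shares differed between the groups by -3.84 and 0.204 percentage points, with no spread over libraries to set them against. Under quantile normalization these differences were -3.00 and -1.42 points, so that at beta2 the sign turned. The share at beta5 was not formed, since Psmb5 was not analysed here.

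**Figure D2:**
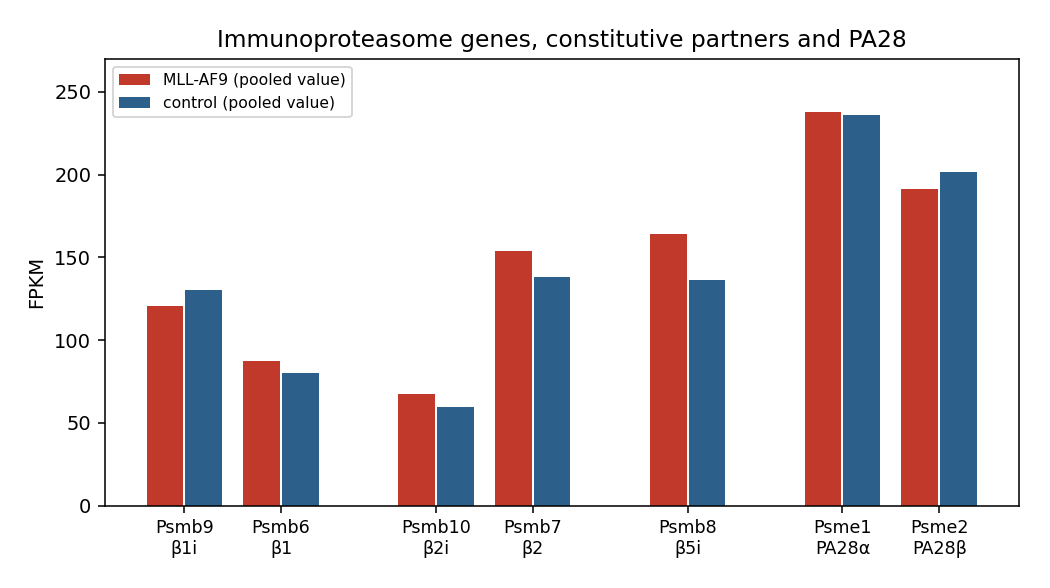
FPKM of the immunoproteasome genes Psmb9, Psmb10 and Psmb8, of the constitutive partners Psmb6 and Psmb7, and of the PA28 genes Psme1 and Psme2, with the pooled MLL-AF9 value (red bar) left of the pooled control value (blue bar). Psmb9 exceeds Psmb6 and Psmb10 lies under Psmb7 in both groups, and no gene differs by more than 1.20-fold.

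Activators of the core were divided in level, and 0 of 4 passed. Psme1 and Psme2, whose products form the PA28 alpha-beta ring of the interferon response, differed little. Psme2 was at 191 FPKM in MLL-AF9 cells, against 201 FPKM in controls, and Psme1 made up 55.4% of the sum of both in MLL-AF9 and 54.0% in control cells. Psme3, which encodes the nuclear PA28 gamma, was at 69.6 FPKM in MLL-AF9 cells, against 50.9 FPKM in controls, a ratio of 1.37 (q = 0.681 in the authors' deposited table). Psme4, which encodes the nuclear activator PA200, was the lowest, at 20.2 FPKM in MLL-AF9 cells, against 16.9 FPKM in controls. Each of the 5 interferon-inducible genes Psmb8, Psmb9, Psmb10, Psme1 and Psme2 had a log2 change below the 0.29 of all rows, from -0.11 to 0.26, and their ratios ran from 0.928 to 1.20. Of all 45 genes 26 lay below that median, and whether the 5 differ from the remaining genes was not tested.

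Most markers of lymphocytes and mature granulocytes fell in the same samples. In bulk RNA, fewer cells of a type and less RNA per cell cannot be told apart. Over all rows 5.2% were called as lower and 5.13% as higher. Of 10 B lymphoid markers 10 fell, with a summed level of 41.6 FPKM in MLL-AF9 cells, against 694 FPKM in controls. Of 9 T and NK markers above the floor 9 fell. Prf1, the other of that list, lay under the floor, at 0.206 FPKM in MLL-AF9 cells, against 1.61 FPKM in controls. All 10 summed to 26.2 FPKM in MLL-AF9 cells, against 194 FPKM in controls. Of 10 granulocyte markers 9 fell (22152 FPKM in MLL-AF9 cells, against 195854 FPKM in controls), and of 10 erythroid markers 8 fell (19.4 FPKM in MLL-AF9 cells, against 249 FPKM in controls). Of 10 monocyte and macrophage markers 4 fell and 0 rose (1601 FPKM in MLL-AF9 cells, against 1966 FPKM in controls). Of 8 dendritic and class II genes above the floor 4 fell and 2, Flt3 and Itgax, rose. With Xcr1, under the floor, the 9 matched genes summed to 438 FPKM in MLL-AF9 cells, against 916 FPKM in controls. The median log2 change was -3.71 for the granulocyte, -3.53 for the B lymphoid, -2.69 for the T and NK, -2.23 for the erythroid, -0.44 for the monocyte and -1.21 for the dendritic list. No marker in the table was listed at 0 in either group, and the part of these cells in the proteasome values was not tested.

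The 19S ATPase genes Psmc1 to Psmc6, whose products form the unfolding ring, were more even in level than the core or lid genes. They ranged from 63.3 to 93.2 FPKM in MLL-AF9 cells, against 54.3 to 84.7 FPKM in controls, with a coefficient of variation of 12.4% in MLL-AF9 and 16.4% in control cells. Psmc3, the Rpt5 subunit, was the highest and Psmc2, the Rpt1 subunit, the lowest in both groups. Their median log2 change was 0.24, or -0.058 after centring on all rows, and 0 of 6 passed. Psmc6, the Rpt4 subunit, had the largest change, at 84.8 FPKM in MLL-AF9 cells, against 62.8 FPKM in controls. Psmc1, the Rpt2 subunit, had the smallest, at 86.5 FPKM in MLL-AF9 cells, against 81.5 FPKM in controls. Psmc4 and Psmc5 lay between, with ratios of 1.27 and 1.20.

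Other genes of the 19S base were Psmd1, Psmd2 and Psmd4, and 0 of 3 passed. Psmd1, the scaffold Rpn2, had the second largest change of the 45 genes, at 53.0 FPKM in MLL-AF9 cells, against 33.2 FPKM in controls (q = 0.492 in the authors' deposited table). Its ratio was 1.60. Psmd2, the scaffold Rpn1, was at 95.5 FPKM in MLL-AF9 cells, against 74.5 FPKM in controls. Psmd4, the ubiquitin receptor Rpn10, was at 102 FPKM in MLL-AF9 cells, against 95.6 FPKM in controls, a ratio of 1.06. The scaffolds were thus listed higher by more than the receptor, without a test of that difference.

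Lid genes of the 19S cap had the largest median change of any subgroup with more than 1 gene on the deposited values, 0.41, or 0.11 after centring on all rows, with 0 of 8 passing. Psmd14, the deubiquitinase Rpn11 that cuts ubiquitin chains from the substrate, was at 87.4 FPKM in MLL-AF9 cells, against 61.0 FPKM in controls, a ratio of 1.43 (q = 0.624 in the authors' deposited table). Psmd7, the Rpn8 partner of Psmd14, was at 55.7 FPKM in MLL-AF9 cells, against 41.0 FPKM in controls, a ratio of 1.36. Psmd11, the Rpn6 subunit that clamps the lid to the core, was the lowest lid gene in both groups, at 40.6 FPKM in MLL-AF9 cells, against 28.7 FPKM in controls. The remaining lid genes Psmd3, Psmd6, Psmd8 and Psmd12 had ratios from 1.23 to 1.39. Psmd13, the Rpn9 subunit, differed from them in sign of its log2 change, -0.022, at 86.1 FPKM in MLL-AF9 cells, against 87.4 FPKM in controls.

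Assembly chaperones chosen by the name rule were listed below the subunits they help to assemble. Pomp, a core maturation factor outside that rule, instead stood above the median constitutive core gene in each group. Its level was 202 FPKM in MLL-AF9 cells, against 186 FPKM in controls. The core chaperones Psmg1, Psmg2, Psmg3 and Psmg4 ranged from 19.9 to 47.4 FPKM in MLL-AF9 cells, against 19.7 to 28.4 FPKM in controls, while the median constitutive core gene was at 177 FPKM in MLL-AF9 cells, against 138 FPKM in controls. Psmg4, the PAC4 chaperone, had the largest ratio of the 45 genes, 1.67, at 47.4 FPKM in MLL-AF9 cells, against 28.4 FPKM in controls, and it did not pass. Its partner Psmg3, the PAC3 chaperone, was at 19.9 FPKM in MLL-AF9 cells, against 19.7 FPKM in controls. The other pair was closer: Psmg1 stood at 23.7 FPKM in MLL-AF9 cells, against 20.6 FPKM in controls, and Psmg2 at 28.9 FPKM in MLL-AF9 cells, against 21.3 FPKM in controls. Chaperones of the 19S base, Psmd5, Psmd9 and Psmd10, stood at 30.1, 10.5 and 24.3 FPKM for MLL-AF9, against 25.4, 9.40 and 25.2 FPKM in control cells. Psmd10, which encodes gankyrin, was thus listed slightly lower and the other two slightly higher, with 0 of 3 passing. Psmf1, the inhibitor, had a ratio of 1.21.

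**Figure D3:**
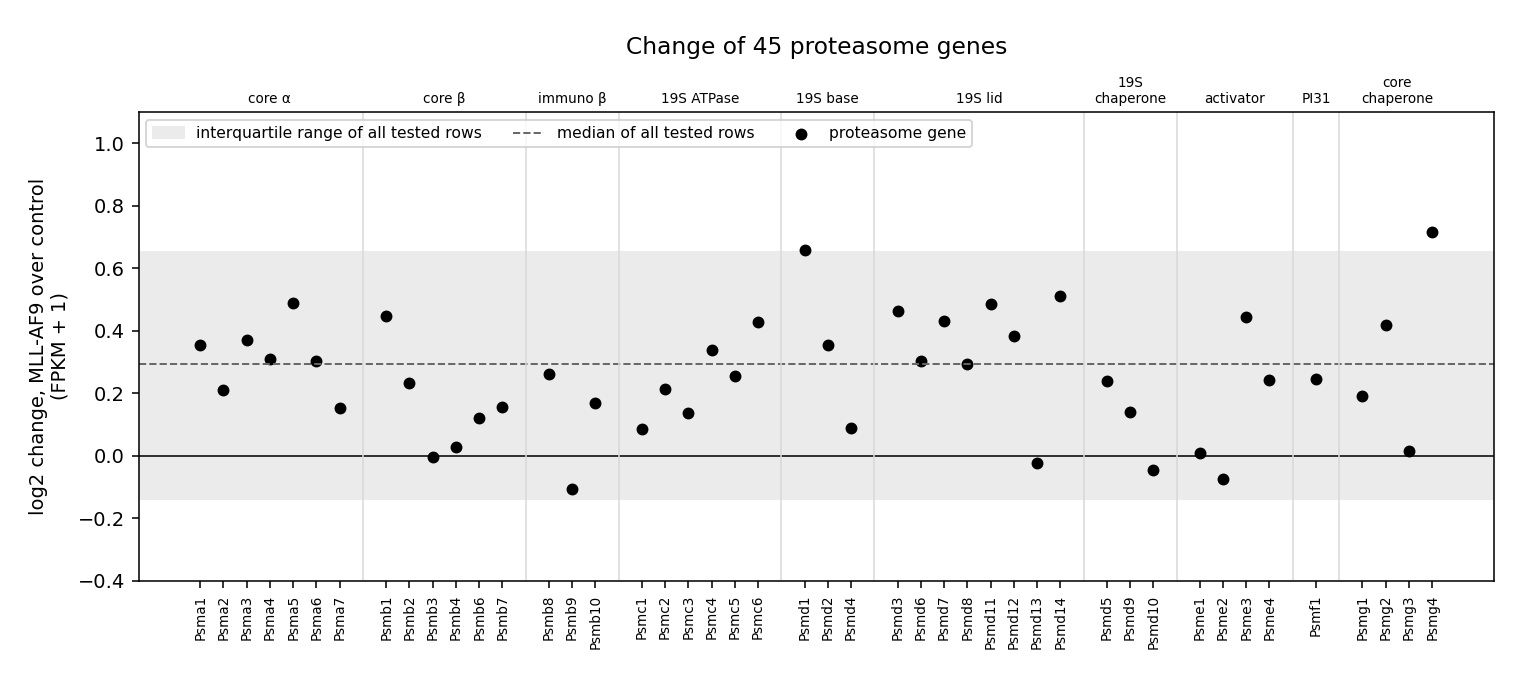
Log2 change of FPKM + 1, MLL-AF9 over control, for the same 45 genes by subgroup, with the median of all 11538 tested rows (dashed line, 0.29) and their interquartile range (grey band). Of the 45 points 19 lie above the dashed line and 26 below, and Psmg4 and Psmd1 lie highest, above the band.

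Psmc3ip, matched by name only, was at 18.8 FPKM in MLL-AF9 cells, against 8.91 FPKM in controls. Its ratio of 2.11 exceeded that of every proteasome gene, but it did not pass (q = 0.427 in the authors' deposited table).

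A list of proteins that bind or build the proteasome held 1 gene that passed. Of 12 listed genes, which include the inhibitor gene Psmf1, itself chosen by the name rule, 11 were in the table, 1 rose and 0 fell, against 5.13% of all rows called as higher, and their median log2 change was 0.37, beside 0.29 over all rows. Without Psmf1 the other 10 genes had a median of 0.43, with the same 1 call. AI314180, the symbol that RefSeq now gives as Ecpas and that encodes the proteasome scaffold ECM29, was at 110 FPKM in MLL-AF9 cells, against 19.4 FPKM in controls. It rose 5.68-fold in MLL-AF9 cells (q = 0.000252 in the authors' deposited table), and its log2 change was 2.45. Uchl5 and Usp14, the deubiquitinases of the 19S cap, stood at 62.1 and 24.8 FPKM for MLL-AF9, against 35.6 and 14.2 FPKM in control cells, with q = 0.0531 and 0.341 in the authors' deposited table. Pomp, the maturation factor of the core, was at 202 FPKM in MLL-AF9 cells, against 186 FPKM in controls, and Adrm1, the ubiquitin receptor Rpn13, was at 53.6 FPKM in MLL-AF9 cells, against 49.3 FPKM in controls. Shfm1, the small lid subunit now named Sem1, was listed at 588 FPKM in MLL-AF9 cells, against 727 FPKM in controls.

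Among known regulators of proteasome genes, 8 tested genes held 0 that rose and 1 that fell, against 5.2% of all rows called as lower, and their median log2 change was 0.018. The gene that fell was Nfe2l2, which encodes the oxidative stress factor NRF2, at 27.7 FPKM in MLL-AF9 cells, against 79.4 FPKM in controls, a log2 change of -1.49 with q = 0.0373 in the authors' deposited table. Nfe2l1, which encodes NRF1, the factor that raises proteasome genes when the protease is inhibited, was at 27.2 FPKM in MLL-AF9 cells, against 23.9 FPKM in controls (q = 0.720 in the authors' deposited table). Nfe2l3, of the same family, lay below the floor, at 0.530 FPKM in MLL-AF9 cells, against 0.316 FPKM in controls.

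The steps around the protease gave 0 calls in 3 lists of 16, 11 and 10 genes, against 10.3% of all rows called. Of 16 genes of ubiquitin itself, its activation and substrate delivery, 0 rose and 0 fell, with a median log2 change of 0.32, and 0 had an unadjusted p under 0.05 in the authors' deposited table. The ubiquitin gene Ubb stood at 1383 FPKM for MLL-AF9, against 1251 FPKM in control cells, and Vcp, the segregase that extracts substrates, was at 165.5 FPKM in MLL-AF9 cells, against 125 FPKM in controls. Of 11 matched genes of MHC class I presentation 0 rose and 0 fell, with a median log2 change of 0.43 and 2 at an unadjusted p under 0.05, Erap1 and Canx (18.2%, against 19.8% of all rows). The transporter gene Tap1, which neighbours Psmb9, was at 67.9 FPKM in MLL-AF9 cells, against 63.7 FPKM in controls. B2m, the light chain of class I, was listed at 1291 FPKM in MLL-AF9 cells, against 1833 FPKM in controls (q = 0.751 in the authors' deposited table). Of 10 matched interferon signalling genes 0 rose and 0 fell, with a median log2 change of 0.27, below the 0.29 of all rows, and 3 (against 19.8% of all rows) had an unadjusted p under 0.05: Irf8 at 198 FPKM in MLL-AF9 cells, against 90.7 FPKM in controls, Ifnar2 at 119 FPKM in MLL-AF9 cells, against 66.8 FPKM in controls, and Ifngr2 at 32.2 FPKM in MLL-AF9 cells, against 65.9 FPKM in controls.

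**Figure D4:**
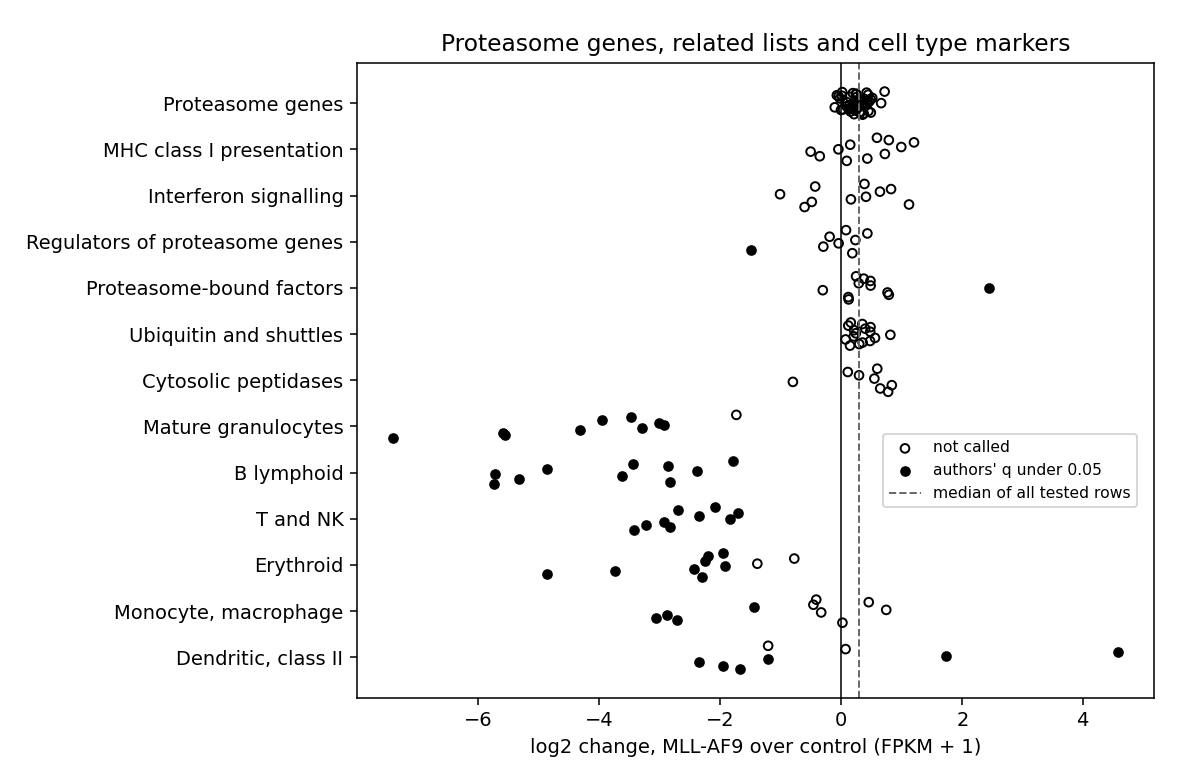
Log2 change of FPKM + 1, MLL-AF9 over control, for each tested gene of the proteasome, of the related lists and of the cell type markers, with filled points where the q-value of the authors' deposited table is under 0.05. The proteasome genes form a narrow group between -0.11 and 0.72 with 0 filled points, and the markers of granulocytes, B cells and T and NK cells lie far to the left.

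Promoter letters were read as a feature that the choice of genes did not use. RefSeq promoters of build GRCm38.p6, from 250 bases before to 50 bases after the start, were at hand for 39 of the 47 genes as 42 promoters. The letters CCGGAAG, a core bound by ETS family factors, were found on either strand in 15 of the 42 (35.7%), against 8.86% of all 32851 promoters and 18.6% of 9416 promoters of other genes above the floor. The 14 genes with it were Psma6, Psmc1, Psmc2, Psmc6, Psmd2, Psmd4, Psmd6, Psmd11, Psmd12, Psmd13, Psme3, Psme4, Psmg1 and Psmg3. These shares are descriptions without a test, and the base composition of the promoters was not matched.

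Letters of interferon and stress elements were read in the same promoters. Motifs differ in how common they are in other promoters, so their counts are not ranked. The core of the interferon-stimulated response element, GAAA followed by any 2 bases and GAAA again, was found on either strand in 5 of 42 promoters (11.9%), against 3.44% of all and 3.19% of the other genes above the floor. The 5 were those of Psmb3, Psmd4, Psmd9, Psme1 and Psmg4. TGACNNNGC, the antioxidant response element read by NRF1 and NRF2, was in 5 of 42 (11.9%), against 12.4% of all and 15.0% of the other genes above the floor. CCAAT was in 14 of 42 (33.3%), against 37.4% of all and 38.8% of the other genes above the floor. No matches of unlike motifs overlapped in these promoters.

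The promoters of the neighbouring immunoproteasome genes Psmb9 and Psmb8, of Psme1, the highest proteasome gene, and of Psmc1 and Psmd11, a pair with the ETS letters near the start, are printed to show where these matches lie and where there are none. Capitals mark matches to the interferon, antioxidant and ETS letters, and the Psmb9 and Psmb8 promoters hold none of them. Other interferon elements and looser forms of these letters were not searched, so their absence is not shown. In Psme1 the interferon letters begin at 10 from the start, and the ETS letters begin at -28 in Psmc1 and at -11 in Psmd11. The positions are chr17:34187281-34187580 on the minus strand for Psmb9, chr17:34197945-34198244 on the plus strand for Psmb8, chr14:55578244-55578543 for Psme1, chr12:100109952-100110251 for Psmc1 and chr11:80428365-80428664 for Psmd11, the last 3 on the plus strand.
Psmb9: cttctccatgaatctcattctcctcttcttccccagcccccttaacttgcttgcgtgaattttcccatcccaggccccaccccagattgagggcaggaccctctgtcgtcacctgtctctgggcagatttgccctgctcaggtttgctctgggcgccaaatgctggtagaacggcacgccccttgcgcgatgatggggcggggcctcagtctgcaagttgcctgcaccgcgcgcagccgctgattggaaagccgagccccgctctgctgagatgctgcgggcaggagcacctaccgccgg
Psmb8: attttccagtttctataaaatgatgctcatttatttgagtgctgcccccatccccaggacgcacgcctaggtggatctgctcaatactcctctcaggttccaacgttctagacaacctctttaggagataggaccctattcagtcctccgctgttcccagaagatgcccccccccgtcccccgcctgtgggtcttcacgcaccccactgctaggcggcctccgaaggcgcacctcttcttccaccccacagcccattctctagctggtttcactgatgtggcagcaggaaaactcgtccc
Psme1: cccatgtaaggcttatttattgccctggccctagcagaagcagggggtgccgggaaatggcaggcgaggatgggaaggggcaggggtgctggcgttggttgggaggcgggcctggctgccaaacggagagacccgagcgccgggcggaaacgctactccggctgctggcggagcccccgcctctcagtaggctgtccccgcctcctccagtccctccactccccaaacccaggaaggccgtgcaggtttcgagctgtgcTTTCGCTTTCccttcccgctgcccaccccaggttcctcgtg
Psmc1: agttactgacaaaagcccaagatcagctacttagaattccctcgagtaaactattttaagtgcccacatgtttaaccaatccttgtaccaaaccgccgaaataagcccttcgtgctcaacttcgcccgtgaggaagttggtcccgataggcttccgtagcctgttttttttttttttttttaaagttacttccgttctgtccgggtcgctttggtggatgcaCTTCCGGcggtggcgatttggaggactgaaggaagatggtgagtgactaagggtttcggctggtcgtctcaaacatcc
Psmd11: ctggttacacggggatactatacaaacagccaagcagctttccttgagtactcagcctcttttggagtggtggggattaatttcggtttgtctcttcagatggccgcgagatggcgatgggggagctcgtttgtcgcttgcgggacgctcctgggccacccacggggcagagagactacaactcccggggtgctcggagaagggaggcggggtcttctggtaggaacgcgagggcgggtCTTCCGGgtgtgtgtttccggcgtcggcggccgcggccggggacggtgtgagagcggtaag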

How the data were processed

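PolyA RNA was measured in 3 MLL-AF9 and 3 control libraries. Per the submitters' processing notes, the tools were Cufflinks 1.3.0, TopHat 1.4.1 and CASAVA 1.8.2, the build was mm9, and the role of each tool is not stated. The labels' protocols describe duplicates per genotype and a TruSeq RNA kit (a kind that does not keep strand), so which libraries entered the pooled values is unknown. The deposited table gives 1 value per group. Its unit, made by the authors, was read as FPKM from the tools named and the values, since the header names none. The p-value and q-value per row are those of the authors' own comparison, as deposited.

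With no values per library, no test was computed anew. A gene was called at q under 0.05 if both groups together averaged 1 FPKM or more. The row of S100a9, listed at 0 in control as a failed estimate, was dropped. Log2 changes use FPKM + 1, which understates changes of low genes. Medians of lists and subgroups are descriptions. The calculation was run on simulated data without noise and with q-values set in advance, which checks the arithmetic only. The members, lists and motifs were chosen with earlier results of these data known.

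The rule for named genes accounts for every member, with full values for catalytic pairs, activators, inhibitor, core chaperones and the extremes of other subgroups, and for called genes of other lists. Other genes were named after their values were seen. The planned pair of Psmb5 and Psmb8 was not formed. The 5hmC regions are in mm9 and were not assigned to genes here. Some results are not reported here. Software was scipy 1.17.1, pandas 2.3.3, numpy 2.4.6 and matplotlib 3.10.9 under Python 3.11.15.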

Additional observations from a re-analysis of the deposited data

How the results depend on the processing

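The count of 0 called proteasome genes was 0 as well at q under 0.10, at q under 0.01, at a minimum mean of 5 FPKM, without a filter and at an unadjusted p under 0.05. In the related lists, q under 0.10 gave 1 interferon signalling gene in place of 0 and 2 proteasome-bound factors in place of 1, and q under 0.01 gave 0 regulators in place of 1. An unadjusted p under 0.05 gave 2 class I genes and 3 interferon signalling genes in place of 0, and 2 proteasome-bound factors.

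Medians depended on how the groups were scaled, as did the median of all rows, which was 0.29 as deposited, 0.086 under quantile normalization and 0.18 when both groups were scaled to their sum without the 100 highest rows. After centring on the median of all rows, the median log2 change was -0.049 over the 45 proteasome genes, 0.017 for core alpha, -0.15 for constitutive beta, -0.12 for immunoproteasome, -0.058 for ATPase, 0.060 for other base, 0.11 for lid, -0.15 for 19S chaperone, -0.17 for activator and 0.011 for core chaperone genes. Scaled to the sum, the same medians were 0.14, 0.19, 0.021, 0.052, 0.12, 0.24, 0.29, 0.031, 0.011 and 0.19. Over the 45 genes the median was 0.18 under quantile normalization, above the 0.086 of all rows. Under quantile normalization the medians that moved by at least 0.1 were those of immunoproteasome (0.038), ATPase (0.11), lid (0.26), 19S chaperone (-0.15), activator (0.016) and core chaperone genes (0.070). The cause was not tested. Immunoproteasome shares moved by less than 2 percentage points within each group, while their difference between the groups at beta2 turned from 0.204 to -1.42 points (an alternative chosen after seeing the data, as was leaving Psmf1 out of the bound factors), and core levels and their coefficients of variation by less than 10%, under quantile normalization.

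No paired analysis was possible because the table holds 1 pooled value per group. Leaving out each library in turn was not run for the same reason, and the depth per library is unknown.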

Other observations

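Cytosolic peptidases, which trim the peptides that the proteasome releases, held 0 calls among 8 tested genes, and 0 had an unadjusted p under 0.05 in the authors' deposited table, against 10.3% and 19.8% of all rows. Their median log2 change was 0.57, beside 0.29 over all 11538 rows. In MLL-AF9 cells 7 of 8 were listed higher, against 68.7% of all rows, and 5 of 8 lay above the median change of all rows. Lap3, a leucine aminopeptidase, was at 15.3 FPKM in MLL-AF9 cells, against 8.11 FPKM in controls, and Tpp2, tripeptidyl peptidase II, was at 27.8 FPKM in MLL-AF9 cells, against 15.8 FPKM in controls. Npepps, the puromycin-sensitive aminopeptidase, was the member listed lower, at 22.2 FPKM in MLL-AF9 cells, against 39.4 FPKM in controls.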
